A study of Schizosaccharomyces pombe with 29 samples.

Results

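The transcriptome of fission yeast (Schizosaccharomyces pombe) that lacked both of its RNase H enzymes was compared with that of wild type, and the transcripts were ordered by what their genes do. The comparison used 5 of the 29 samples of the series, 3 RNA-seq libraries of wild type (WT) and 2 of the double deletion rnh1∆rnh201∆. The deletion strain lacks rnh1, which encodes RNase H1, and rnh201, which encodes the catalytic subunit of RNase H2. A further 3 RNA-seq libraries, of cells labelled pRnhA, in which rnhA, the RNase H gene of Escherichia coli, is overexpressed, entered the fit to help estimate the spread between libraries and serve as a second reference. All of these cultures grew in PMG, a minimal medium, and were kept at 34 °C for 3 hours before they were collected, so WT shared the warm incubation. The members were the 6456 of 7016 rows of the authors' table (genes and noncoding transcripts) with a mean normalized count of at least 1 over the 8 libraries. The labels do not say how the genes were deleted, whether the libraries came from separate clones or cultures, or how many strains stand behind them, so p-values measure only the spread between these libraries.

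RNase H enzymes cut the RNA strand of RNA-DNA hybrids. Such hybrids form when a nascent transcript anneals to its template and leaves the other DNA strand unpaired, a structure called an R-loop. RNase H1 acts on longer stretches of hybrid, whereas RNase H2 also removes single ribonucleotides left in DNA by the replicative polymerases. Highly transcribed genes, such as those for ribosomal and transfer RNA, are known sites of hybrids in yeasts.

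The deleted genes served as a check of the labels. For rnh201 the normalized count was 390, 360 and 300 in WT replicates 1, 2 and 3 and 7 and 12 in rnh1∆rnh201∆ replicates 1 and 2. That of rnh1 was 320, 300 and 290 in WT and 36 and 23 in rnh1∆rnh201∆. Both rnh1∆rnh201∆ libraries were thus low for both genes, by log2 fold changes of -5.10 and -3.35. Libraries also differed in a way the groups do not explain. The M-type transcript mat1-Mc led in WT replicates 1 and 2 and in rnh1∆rnh201∆ replicate 2, and the P-type transcript mat2-Pc led in WT replicate 3 and rnh1∆rnh201∆ replicate 1. By these transcripts at least 2 strains of opposite mating type stand behind WT, and likewise behind rnh1∆rnh201∆. The spread within each group thus includes any differences between its strains. WT replicates 1 and 3 stood farthest apart: among the 4532 rows whose mean reached 200, 7.97% were more than 1.5-fold apart in them, against 1.74% between the rnh1∆rnh201∆ libraries. For the groups described, counts of calls without WT replicate 1, but not without replicate 3, are given beside the group or near the end. So are medians without 1 WT library or within a mating type that move a median beyond 0.1 in size by over 1.5 times.

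Few rows passed limma's adjusted threshold, while many differed under looser counts. In limma's moderated test on log2(normalized count + 1), 19 rows, or 0.294% of those tested, had an adjusted p under 0.05, and 1374 had an unadjusted p under 0.05. Of the unadjusted ones 701 were higher in rnh1∆rnh201∆ (10.9% of rows) and 673 lower (10.4%). The authors' deposited table, made with DESeq2, has 932 of 6039 rows past 0.05, with 6.94% of rows higher and 8.49% lower. Without WT replicate 1, limma called 1264 rows (19.6%), 10.5% of rows as higher and 9.05% as lower. It called 34 rows without WT replicate 3 and 4 without WT replicate 2. Group counts without WT replicate 1 thus come from the left-out library that gave the most calls, and they are not given for the others. Single calls depended on which libraries were in the fit. Of the 19 rows, 3 remained without WT replicate 2. Leaving out pRnhA replicate 1, 2 or 3 kept 3, 4 and 6 of them. Without a pRnhA library the fold changes against WT stay the same, so those losses come through the estimate of the spread. Scaling each library to its total gave 213 rows, 79.3% of them higher against 26.3% in the authors' scaling. For 15.0% of rows both rnh1∆rnh201∆ libraries lay above all 3 WT libraries, and for 13.9% both lay below. These shares are the background against which the counts for each of 72 functional groups are read. The median log2 fold change of all rows was 0.01. Unless a limma call is named for a group, limma called 0 of its members past the adjusted threshold, and its unadjusted count and the authors' count are given in its place.

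**Figure D1:**
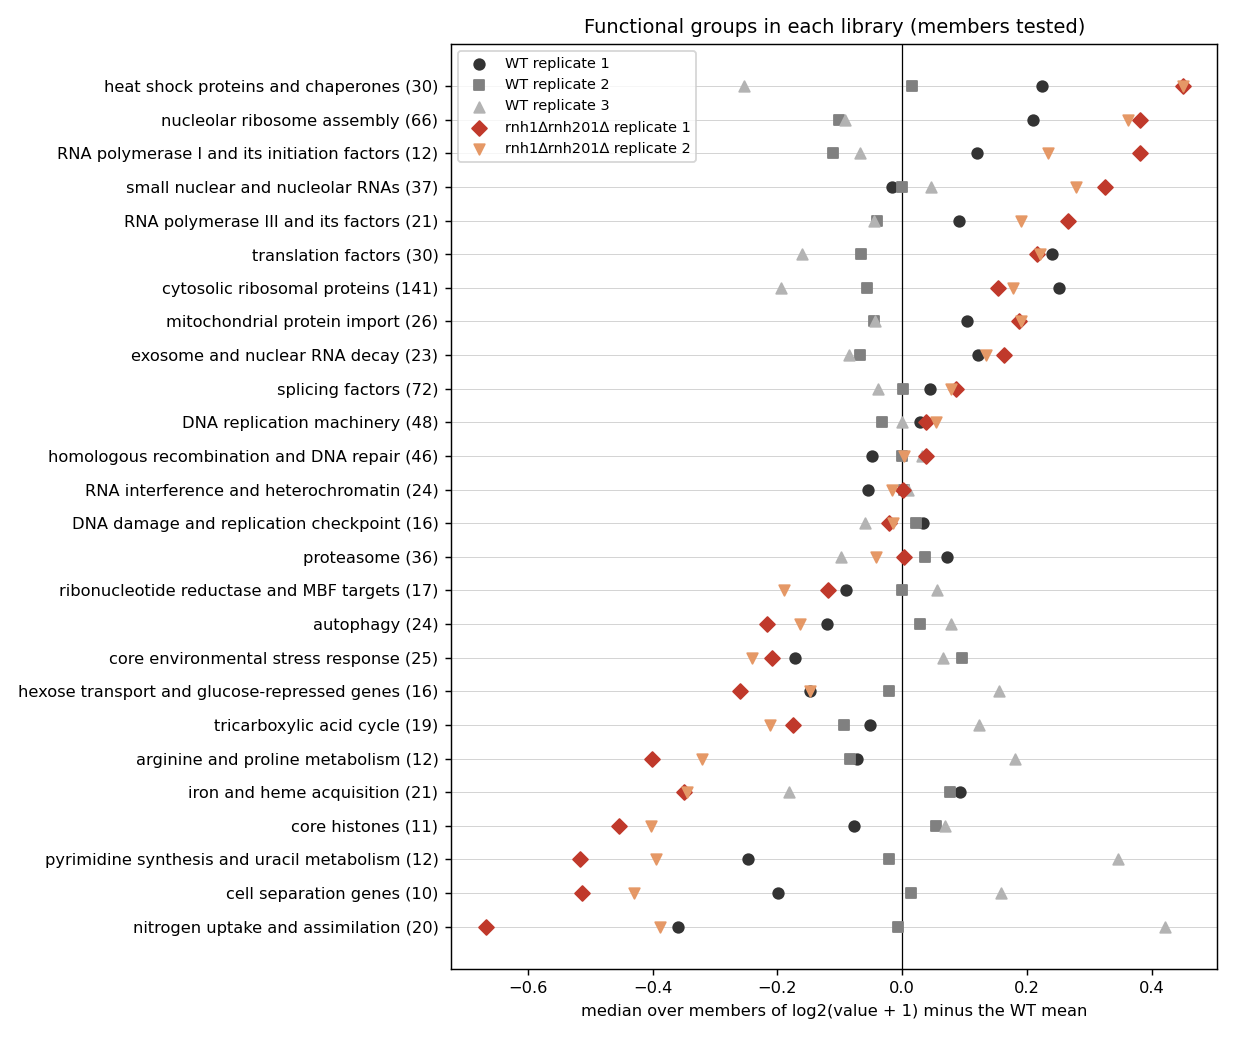
Median over the members of each functional group of log2(normalized count + 1) minus the WT mean, 1 point per library, with the number of members tested in parentheses. Both rnh1∆rnh201∆ libraries (red and orange) lie to the right of all WT libraries (grey) for chaperones at 0.45 and to the left for core histones at -0.45 and -0.40, while WT replicate 1 lies to the right of both for ribosomal proteins at 0.25.

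Genes for making ribosomes were higher in rnh1∆rnh201∆. Nucleolar ribosome assembly, the processing of ribosomal RNA precursors and their packing into subunits, had the most members past 0.05 in the authors' deposited table among the 72 groups, 51 of 66 higher and 0 lower. Of the 66 members, 65 had a positive log2 fold change, with a median of 0.39 and a range of -0.09 to 1.10. At an unadjusted limma p under 0.05, 55 were higher and 0 lower, while limma called 0 past the adjusted threshold with all libraries and 57 as higher without WT replicate 1. For 54 of the 66 both rnh1∆rnh201∆ libraries lay above all WT libraries. Small differences in the same direction thus ran through most of the group.

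The normalized count of nop10, a protein of the box H/ACA particles that modify ribosomal RNA, was 740, 710 and 690 in WT and 980 and 940 in rnh1∆rnh201∆. Its log2 fold change was 0.43 (SE 0.07), with a limma adjusted p of 0.051. The groups did not overlap, and the values within each group were close. For mak16, which is needed to build the large subunit, the counts were 580, 470 and 490 in WT and 810 and 690 in rnh1∆rnh201∆. Here WT replicate 1 was the highest of its group but still below both deletion libraries. The nucleolar complex gene noc3 went from 1500, 1400 and 1400 to 1800 and 1800, and the ribosomal RNA methyltransferase gene rrp8 from 200, 190 and 180 to 270 and 260. Each of these 4 genes rose in the authors' deposited table, and each passed limma without WT replicate 1.

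Subunits of RNA polymerases were also higher, and not only of those that transcribe ribosomal and transfer RNA. For RNA polymerase I and its initiation factors, the enzyme of the ribosomal RNA repeats, the median of 12 members was 0.31. Limma's unadjusted count was 7 higher and 0 lower, and 6 rose and 0 fell in the authors' deposited table. The second largest subunit, rpa2, had counts of 3900, 2900 and 2700 in WT and 4500 and 4500 in rnh1∆rnh201∆. WT replicate 1 lay between the other WT libraries and the deletion libraries. The small subunit rpa12 went from 380, 310 and 320 to 480 and 520 (log2 fold change 0.57, SE 0.14, limma adjusted p 0.088). For RNA polymerase III and its factors, which make transfer RNA and 5S ribosomal RNA, the median of 21 members was 0.23, with 7 higher and 0 lower at an unadjusted limma p and 4 risen and 0 fallen in the authors' deposited table. Its subunit rpc25 had counts of 600, 540 and 500 in WT and 700 and 690 in rnh1∆rnh201∆. Within the M-type libraries the polymerase I median was 0.19, and within the P-type libraries it was 0.48. RNA polymerase II subunits had a median of 0.18 over 11 members, with 4 higher and 0 lower at an unadjusted limma p. Of these members 1 rose and 0 fell in the authors' deposited table. Limma called 4 as higher without WT replicate 1, and within the M-type libraries the median was 0.11. Limma's counts thus did not set RNA polymerase III clearly apart from RNA polymerase II.

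The protein side of translation moved less clearly. Of 30 translation factors 29 had a positive log2 fold change, with a median of 0.23, and 10 rose and 0 fell in the authors' deposited table. At an unadjusted limma p 11 were higher and 0 lower. The initiation factor gene tif11 had counts of 2300, 1900 and 1700 in WT and 2900 and 2600 in rnh1∆rnh201∆, and the release factor gene sup45 of 3000, 2200 and 2300 against 3300 and 3400. Of 141 cytosolic ribosomal protein genes 133 were positive, but the median was only 0.17. A total of 7 rose and 1 fell in the authors' deposited table, a share near that of all rows, and limma's unadjusted count was 17 higher and 1 lower. Many of these genes are close paralogs, so values of single copies are uncertain. These counts rest on WT replicate 1: without it limma called 24 translation factors and 69 ribosomal protein genes as higher and 0 and 1 as lower. In that library the median translation factor stood 0.24 above the WT mean and the median ribosomal protein gene 0.25, against 0.22 and 0.22, and 0.15 and 0.18, in the deletion libraries. The ribosomal protein median was 0.06 without WT replicate 3 and 0.29 without replicate 1. It was 0.08 within the M-type libraries and 0.35 within the P-type libraries. The translation factor median was 0.35 without WT replicate 1, 0.15 within the M-type and 0.39 within the P-type libraries.

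The promoters of these groups differ in a known motif, which was searched in the 300 bases before each annotated transcript start, on both strands, in assembly ASM294v3. The HomolD box, searched as CAGTCACA, is the known start element of fission yeast ribosomal protein genes. It lay in 87 of 139 ribosomal protein windows (62.6%), in 1 of 66 nucleolar ones (1.52%) and in 131 of all 5065 windows (2.59%). The group with the larger median thus held almost none of the letters that mark the group with the smaller one.

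**Figure D2:**
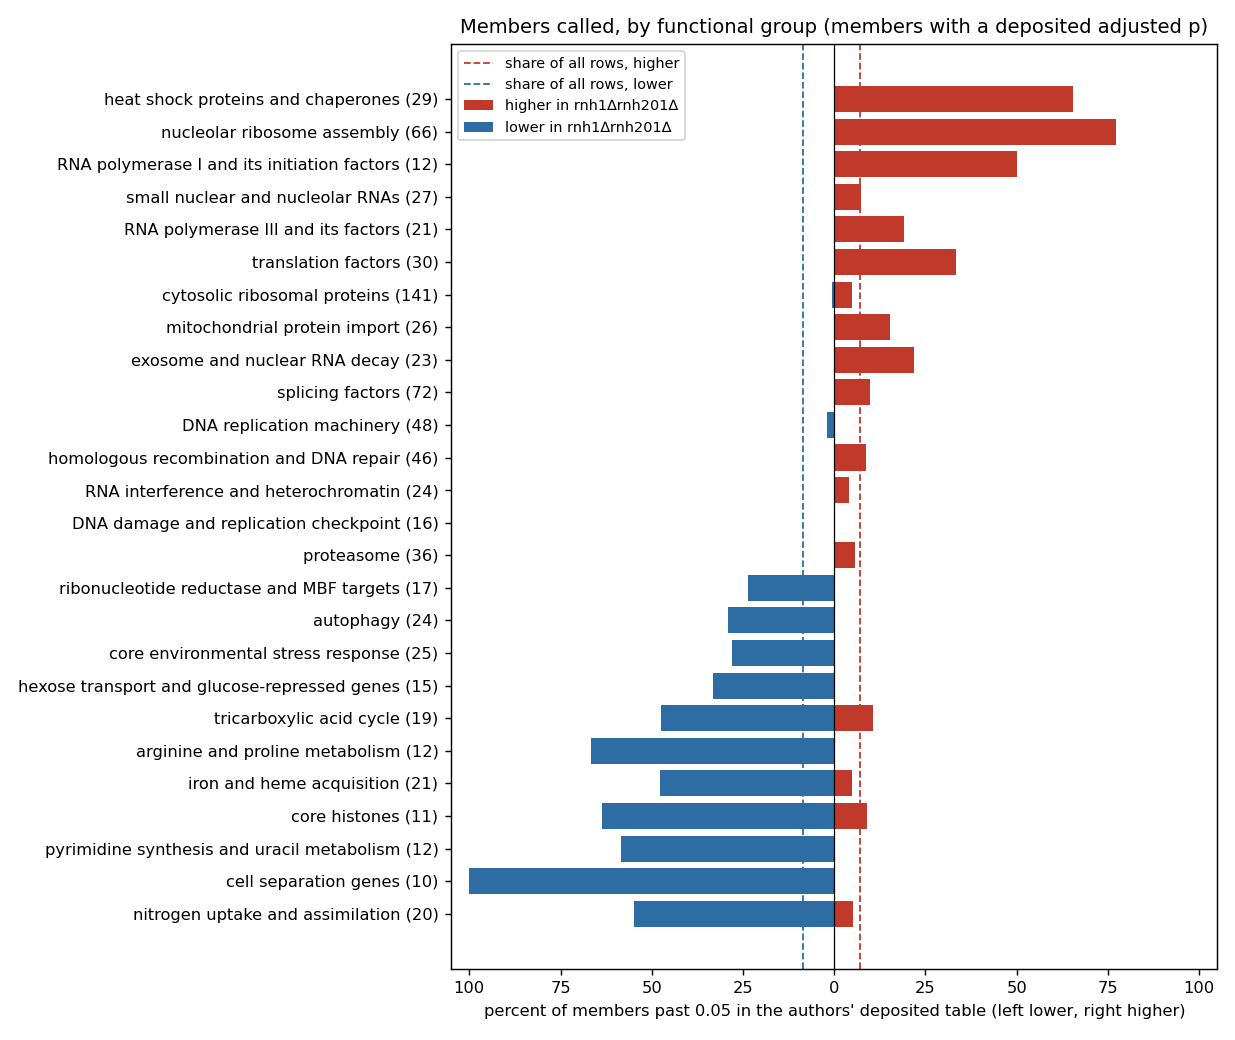
Percent of the members of each functional group past an adjusted p of 0.05 in the authors' deposited table, with higher members to the right in red and lower members to the left in blue. Dashed lines mark the shares of all rows, 6.94% higher and 8.49% lower, which the bars of the nucleolar, chaperone, histone, cell separation and nitrogen groups exceed and those of replication, checkpoint and proteasome do not.

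Chaperones, which fold proteins and bind unfolded ones, had the highest median of the 72 groups. Of 30 heat shock and chaperone genes 29 were positive, with a median of 0.47 and a range of -0.03 to 2.31. Limma called 1 as higher, against 0.0774% of all rows, and 20 at an unadjusted p. Of 29 with a deposited adjusted p, 19 rose and 0 fell in the authors' deposited table. The called gene was ssa1, a cytosolic Hsp70, with counts of 1200, 1100 and 780 in WT, 2300 and 2100 in rnh1∆rnh201∆ and 1600, 1600 and 1700 in pRnhA. The 3 groups did not overlap, with rnh1∆rnh201∆ the highest. Without WT replicate 1 limma called 22 of the 30.

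Members of several chaperone families took part. SPBC4F6.17c, the mitochondrial disaggregase Hsp78, went from 1900, 1600 and 1200 to 3100 and 3100 (log2 fold change 1.01, SE 0.16, limma adjusted p 0.051). SPCC338.06c, a small heat shock protein of the Hsp20 type, went from 1300, 1300 and 1200 to 1800 and 1700, and wos2, an Hsp90 cochaperone, from 5600, 5100 and 4100 to 7300 and 7400. All 3 rose in the authors' deposited table. The disaggregase gene hsp104 and the small heat shock gene hsp16, both chosen after their values were seen, had counts of 3300, 3200 and 2100 against 4700 and 4900, and of 490, 490 and 220 against 1100 and 800. WT replicate 3 was the lowest library for each of the genes named here, though only narrowly for SPCC338.06c. The group median was 0.34 within the M-type libraries and 0.69 within the P-type libraries.

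The heat shock element, the binding site of heat shock factor, was searched as GAANNTTC, which reads the same on both strands. It lay in 14 of 30 chaperone windows (46.7%), against 11.5% of all windows. Stretches before 4 members that carry the element and rose in the authors' deposited table are shown as examples, chosen after their values were seen, with the 8 bases of the match in capitals, on each gene's own strand in ASM294v3.
ssa1 (chromosome I, 2298003-2298034): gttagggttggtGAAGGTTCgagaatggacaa
hsp16 (chromosome II, 2661066-2661097): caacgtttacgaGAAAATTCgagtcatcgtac
SPCC338.06c (chromosome III, 1365029-1365060): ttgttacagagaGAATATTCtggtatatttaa
sti1 (chromosome III, 1263649-1263680): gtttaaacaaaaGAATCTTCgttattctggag

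The cochaperone gene sti1, chosen after its values were seen, had counts of 8300, 6600 and 5300 in WT and 11000 and 10000 in rnh1∆rnh201∆. A match is a description of these letters and shows no binding.

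Mitochondrial protein import was higher as well. Of 26 members 25 were positive, with a median of 0.16, 9 higher and 0 lower at an unadjusted limma p, and 4 risen and 0 fallen in the authors' deposited table. The genes hsp10 and mcp60 encode the chaperonin of the mitochondrial matrix. Both are among the 4 risen members, and both are also counted in the chaperone list above, as is ssc1. The counts of the import and chaperone lists thus overlap. The counts of hsp10 were 3500, 2900 and 2400 in WT and 4000 and 4000 in rnh1∆rnh201∆, and those of mcp60 were 9700, 8400 and 8300 against 11000 and 11000. The import motor gene tim44 went from 1500, 1200 and 1300 to 1700 and 1600. In contrast, 53 mitochondrial ribosomal protein genes had a median of 0.06, with 2 risen and 0 fallen in the authors' deposited table and 3 and 1 at an unadjusted limma p.

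Genes of RNA processing differed in a minority of members. Of 23 genes of nuclear RNA decay, a list of the exosome, the complex that trims and destroys RNA, and of factors that work with it, 22 were positive with a median of 0.13. Among them 5 rose and 0 fell in the authors' deposited table, and 4 were higher and 0 lower at an unadjusted limma p. Limma called 9 as higher without WT replicate 1, and within the P-type libraries the median was 0.24. The nuclear exonuclease gene rrp6 had counts of 1800, 1700 and 1600 in WT and 2200 and 2200 in rnh1∆rnh201∆ (log2 fold change 0.37, SE 0.07, limma adjusted p 0.062). The groups did not overlap. Of 72 splicing factors 58 were positive with a median of 0.08, and 7 rose and 0 fell in the authors' deposited table, against 11 and 0 at an unadjusted limma p. The core splicing protein gene smd3 went from 810, 790 and 730 to 990 and 980.

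Factors that limit RNA-DNA hybrids other than RNase H were of interest for a strain without it. This list of 17 held helicases, topoisomerases, messenger RNA export factors and the other RNase H2 subunits. Its median was 0.07, 3 members rose and 0 fell in the authors' deposited table, and 4 were higher and 0 lower at an unadjusted limma p. The helicase gene sen1, whose product unwinds RNA-DNA hybrids, had counts of 1600, 1300 and 1300 in WT, 2000 and 1800 in rnh1∆rnh201∆ and 2300, 2300 and 2100 in pRnhA. Its limma adjusted p was 0.075, the authors' deposited table prints 0.05, and the highest values were those of pRnhA. The DEAD-box helicase gene dbp2 went from 2100, 2100 and 1900 to 2400 and 2600 and rose in the authors' deposited table, at 0.29.

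Small nuclear and nucleolar RNAs, which guide splicing and ribosomal RNA modification, could be tested for 37 of 62 rows. Of these 31 were positive, with a median of 0.29 and a range of -1.30 to 1.67, but only 2 of 27 rose in the authors' deposited table and 0 fell, a share near that of all rows. At an unadjusted limma p 7 were higher and 1 lower. The box H/ACA RNA sno12 had counts of 250, 280 and 210 in WT and 420 and 350 in rnh1∆rnh201∆, and snR191 was at 110 in each WT library and at 220 and 160. Many of these RNAs lack a poly(A) tail, and the labels' protocol leaves out the poly(A) step only for another assay, so how far these rows stand for the RNA's level is uncertain.

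The core histone genes were lower in rnh1∆rnh201∆. They supply the nucleosomes that package newly copied DNA and are normally expressed in S phase. Limma called 2 of 11 as lower, against 0.217% of all rows, and 8 at an unadjusted p, with 1 higher. By DESeq2, 7 fell and 1 rose in the authors' deposited table. The median log2 fold change was -0.44, with a range of -0.66 to 0.35. It was -0.41 within the M-type and -0.47 within the P-type libraries.

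The H2A gene hta2 had counts of 2500, 2700 and 2500 in WT, 1800 and 1800 in rnh1∆rnh201∆ and 2100, 1900 and 2100 in pRnhA. The rnh1∆rnh201∆ libraries were the lowest of the 8, and its log2 fold change was -0.51 (SE 0.07, limma adjusted p 0.045). The H3 gene hht3 had counts of 1800, 2000 and 1900 in WT, 1300 and 1400 in rnh1∆rnh201∆ and 1700, 1600 and 1800 in pRnhA, a fall of 0.49 on the log2 scale (limma adjusted p 0.048). The other 9 histone genes include several outside the rule for naming. Of these, hta1 was at 3100, 3300 and 3000 in WT and 2400 and 2400 in rnh1∆rnh201∆, and the H4 gene hhf1 was at 1700, 2000 and 2100 against 1300 and 1300. The genes hhf3, htb1 and hht1 had log2 fold changes of -0.66, -0.51 and -0.44, and all 5 fell in the authors' deposited table. The pair hht2 and hhf2, at -0.29 and -0.15, and the H2A variant gene pht1, at -0.04, passed neither test. The exception in direction was cnp1, which encodes the H3 variant of centromeres, with counts of 210, 220 and 240 in WT and 280 and 290 in rnh1∆rnh201∆. It rose in the authors' deposited table, at 0.33. The copies of the H3, H4 and H2A genes are near-identical in their coding sequence, so how the authors' counting split reads between them is uncertain.

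The histone genes are known to share a promoter element. The longest run of bases present, on either strand, in the windows of at least 75% of the 11 genes was AACCCTAACCCT, with the 75% set after this run had been seen in the same promoters. It lay in 9 of the 11 windows (81.8%), a share fixed by that search, and in 20 of all 5065 windows (0.395%), and was not found before cnp1 and pht1. Outside the histones it lay in 3 of 30 chaperone windows and 2 of 29 translation factor windows, both of groups that were higher. It lay in 0 of 66 nucleolar, 0 of 139 ribosomal protein and 0 of 10 cell separation windows. The element was thus not limited to genes of groups that were lower. The stretches around it are shown in full for the gene with the clearest fall and for 3 divergent pairs that share 1 copy each, with the element in capitals, on the strand of the gene named first, in ASM294v3.
hta2 (chromosome I, 4053359-4053394): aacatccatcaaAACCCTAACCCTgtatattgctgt
hht1, shared with hhf1 (chromosome I, 4699640-4699675): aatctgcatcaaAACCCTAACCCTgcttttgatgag
hhf3, shared with hht3 (chromosome II, 3529615-3529650): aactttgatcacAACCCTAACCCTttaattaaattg
hhf2, shared with hht2 (chromosome II, 1365048-1365083): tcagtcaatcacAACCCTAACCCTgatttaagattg

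The pair hht2 and hhf2 carries the same letters as the others and had the smallest changes among the histone genes that hold them.

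**Figure D3:**
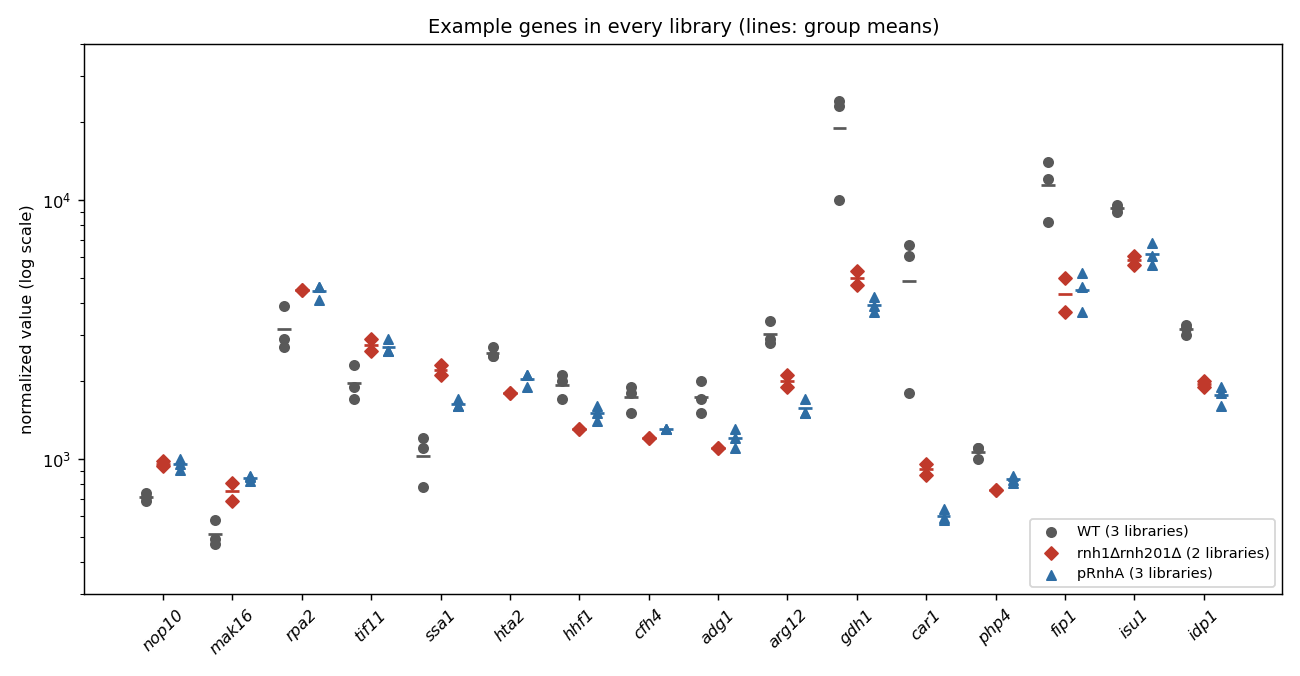
Normalized counts (log axis) of 16 genes in every library, with lines at the group means for WT (circles, 3 libraries), rnh1∆rnh201∆ (diamonds, 2 libraries) and pRnhA (triangles, 3 libraries). The rnh1∆rnh201∆ libraries lie above all WT libraries for nop10, mak16, rpa2, tif11 and ssa1 and below them for the other 11 genes, and gdh1 and car1 show a WT replicate 1 well below the other WT libraries.

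Genes of cell separation moved as a block. Genes of this group include those for the enzymes that dissolve the septum between daughter cells at the end of the cycle. Of the 10 members of the list, all 10 fell in the authors' deposited table, and all 10 were lower at an unadjusted limma p. The median was -0.47, in a narrow range of -0.65 to -0.22, and without WT replicate 1 limma called 8 as lower. The cell surface gene cfh4 was at 1500, 1800 and 1900 in WT and 1200 and 1200 in rnh1∆rnh201∆ (log2 fold change -0.52, SE 0.09, limma adjusted p 0.052). For adg1 the counts were 1500, 1700 and 2000 against 1100 and 1100, and for adg3 4700, 5300 and 5800 against 3700 and 3900. The septum glucanase genes eng1 and agn1 were at 5100, 6500 and 8200 against 3900 and 4400, and at 1100, 1400 and 1500 against 850 and 1000. In every gene named here WT replicate 1 was the lowest WT library, yet it stayed above both deletion libraries.

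Other genes of the cell cycle moved less. Of 20 cell cycle control genes the median was -0.13, with 5 fallen and 0 risen in the authors' deposited table and 8 lower and 1 higher at an unadjusted limma p. The gene slp1, an activator of the anaphase-promoting complex, was at 1900, 2000 and 2000 in WT and 1500 and 1600 in rnh1∆rnh201∆, and the forkhead factor gene sep1 at 1700, 2000 and 2000 against 1400 and 1600. Of 17 genes of ribonucleotide reductase and the G1/S factor MBF, 4 fell and 0 rose in the authors' deposited table (median -0.15, and -0.08 without WT replicate 3), and 7 were lower and 0 higher at an unadjusted limma p. The large subunit of ribonucleotide reductase, cdc22, was at 7400, 8500 and 9400 in WT and 7000 and 6200 in rnh1∆rnh201∆. The licensing factor gene cdt1 went from 300, 320 and 370 to 260 and 240.

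Nitrogen uptake and assimilation had the lowest median of the groups described, at -0.57, but its members did not move as 1 block. Of the 20 members 11 fell and 1 rose in the authors' deposited table, and at an unadjusted limma p 10 were lower and 1 higher. The range was from -2.09 to 0.80. The glutamate dehydrogenase gene gdh1, which assimilates ammonium, was at 10000, 24000 and 23000 in WT, 4700 and 5300 in rnh1∆rnh201∆ and 3900, 3700 and 4200 in pRnhA. The permease gene per1 was at 2000, 4900 and 6400 in WT and 850 and 1400 in rnh1∆rnh201∆. In both genes WT replicate 1 fell between the other WT libraries and the deletion libraries. The group median was -0.27 within the M-type libraries and -0.98 within the P-type libraries.

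A pair of genes in this group had tighter WT values. For gdh2, the glutamate dehydrogenase that works in the degradative direction, the counts were 3400, 3100 and 3500 in WT, 2100 and 2200 in rnh1∆rnh201∆ and 1200, 1100 and 1400 in pRnhA. Its log2 fold change was -0.63 (SE 0.10, limma adjusted p 0.051), and it fell in the authors' deposited table. The peptide transporter gene ptr2 went the other way, with 670, 780 and 890 in WT, 1400 and 1300 in rnh1∆rnh201∆ and 590, 510 and 620 in pRnhA. It rose in the authors' deposited table, at 0.75 (limma 0.80, adjusted p 0.051). Directly against pRnhA both passed limma, ptr2 at 1.24 (adjusted p 0.0054) and gdh2 at 0.81 (adjusted p 0.019). The call of ptr2 was lost without rnh1∆rnh201∆ replicate 2, at 1.29, and that of gdh2 without any 1 of 4 libraries, both of rnh1∆rnh201∆ and pRnhA replicates 1 and 2, at 0.73 to 0.84.

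Arginine metabolism and the use of uracil were lower too. Of 12 genes of arginine and proline metabolism 8 fell and 0 rose in the authors' deposited table (median -0.36), and 8 were lower and 1 higher at an unadjusted limma p. The argininosuccinate synthase gene arg12 was at 2800, 2900 and 3400 in WT and 1900 and 2100 in rnh1∆rnh201∆ (log2 fold change -0.60, SE 0.10, limma adjusted p 0.051). The arginase gene car1 was at 1800, 6100 and 6700 in WT and 870 and 960 in rnh1∆rnh201∆. Both the synthetic and the degradative gene were thus low. Of 12 genes of pyrimidine synthesis and uracil use, 7 fell and 0 rose in the authors' deposited table (median -0.46), and 6 were lower and 0 higher at an unadjusted limma p. A further member, ura4, was not tested, since it was at 0 in all WT and rnh1∆rnh201∆ libraries and at 0 or 1 in pRnhA. Within the M-type libraries the medians of the arginine and pyrimidine lists were -0.21 and -0.22, and within the P-type libraries they were -0.57 and -0.86. Without WT replicate 3 the pyrimidine median was -0.28. The uracil-regulated genes urg1, urg2 and urg3 varied widely within WT: urg3 was at 1400, 6600 and 10000 in WT and 880 and 1100 in rnh1∆rnh201∆. Their log2 fold changes were -3.97, -3.81 and -2.20, none past limma's adjusted threshold.

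Iron and heme acquisition was lower, and here WT replicate 1 did not lie nearest the deletion. Limma called 1 of 21 as lower and 11 at an unadjusted p, with 1 higher, and 10 fell and 1 rose in the authors' deposited table. The median was -0.42, with a range of -2.47 to 0.59. The called gene was php4, which encodes the repressor of iron-using genes under iron scarcity, with counts of 1100, 1100 and 1000 in WT, 760 and 760 in rnh1∆rnh201∆ and 860, 830 and 810 in pRnhA (log2 fold change -0.49, SE 0.07, limma adjusted p 0.046). The iron permease gene fip1 was at 14000, 12000 and 8200 in WT and 5000 and 3700 in rnh1∆rnh201∆. The ferric reductase gene frp2 was at 990, 960 and 530 against 250 and 160. For fip1 and frp2 it was WT replicate 3 that lay nearest the deletion libraries. The group median was -0.50 within the M-type libraries and -0.20 within the P-type libraries. The heme synthesis gene hem3, chosen after its values were seen, went the other way in the authors' deposited table, at 0.49.

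The GATA factor Fep1 is the known repressor of iron uptake genes. Its site, searched as ATCNGATAA, lay in 7 of 21 windows of this list (33.3%), against 1.64% of all. The promoter shared by the multicopper oxidase gene fio1 and the permease gene fip1 holds a match at 4234824-4234856 and another at 4234973-4235005. The stretch of the former is shown, as is that of the ferric reductase gene frp1. Each has the match in capitals, on the strand of the gene named first, in ASM294v3.
fio1, shared with fip1 (chromosome I, 4234824-4234856): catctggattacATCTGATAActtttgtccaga
frp1 (chromosome II, 162468-162500): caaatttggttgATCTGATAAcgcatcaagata

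Several enzymes of mitochondrial carbon metabolism fell beside the iron genes. In the tricarboxylic acid cycle limma called 1 of 19 as lower and 10 at an unadjusted p, with 3 higher, and 9 fell and 2 rose in the authors' deposited table (median -0.22). The called gene was the isocitrate dehydrogenase gene idp1, with 3300, 3200 and 3000 in WT and 1900 and 2000 in rnh1∆rnh201∆ (log2 fold change -0.70, SE 0.08, limma adjusted p 0.027). For idp1 the authors' deposited table gives -0.70 in rnh1∆rnh201∆ and -0.84 in pRnhA. The genes idh2 and SPCC1620.08, for the NAD-linked isocitrate dehydrogenase and succinate-CoA ligase, went from 1200 in each WT library to 960 and 910, and from 1400, 1500 and 1500 to 1100 and 1200. The cycle did not fall as a whole. The succinate dehydrogenase genes sdh1 and sdh3, chosen after their values were seen, rose in the authors' deposited table, and sdh1 was at 2400, 1700 and 3400 in WT and 3700 and 4300 in rnh1∆rnh201∆. The scaffold gene of iron-sulfur cluster assembly, isu1, fell past limma's threshold, from 9600, 9300 and 9000 to 6100 and 5600 (log2 fold change -0.67, SE 0.09, adjusted p 0.048). It was the only call among 11 members, whose median was 0.03, and 1 rose and 1 fell in the authors' deposited table.

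Nuclear-encoded genes of the respiratory chain and ATP synthase had a median of -0.09 over 37 members. Of these 7 fell and 0 rose in the authors' deposited table, and 9 were lower and 1 higher at an unadjusted limma p. The ATP synthase gene atp2 was at 14000, 13000 and 13000 in WT and 11000 and 9800 in rnh1∆rnh201∆, and the NADH dehydrogenase gene nde2 at 6300, 6100 and 6200 against 5200 and 4700. Of 24 tested rows with mitochondrial identifiers 21 were negative, with a median of -0.25, and 5 of 22 fell and 0 rose in the authors' deposited table, the same counts as at an unadjusted limma p. The median was -0.41 without WT replicate 1, -0.12 within the M-type and -0.50 within the P-type libraries. Limma called the transfer RNA row SPMITTRNAALA.01 as lower, from 580, 600 and 590 to 430 and 420. For that row the authors' deposited table gives -0.47 in rnh1∆rnh201∆ and -0.68 in pRnhA. The rows with mitochondrial identifiers fall under the same reservation on poly(A) as the small nucleolar RNAs.

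Stress, recycling and sugar transport genes were lower by small amounts. The core environmental stress response, the genes that rise under many stresses, had a median of -0.18 over 25 members, with 7 fallen and 0 risen in the authors' deposited table and 9 lower and 1 higher at an unadjusted limma p. Without WT replicate 1 the median was -0.30, with 10 called as lower and 1 as higher by limma, and within the P-type libraries it was -0.32. Its transcription factor gene atf1 was at 4400, 5000 and 4900 in WT and 3700 and 3900 in rnh1∆rnh201∆, and the stress kinase gene srk1 at 1300, 1900 and 1900 against 1100 and 1100. These genes were thus low in the same libraries in which the chaperones were high. Autophagy, the delivery of cell contents to the vacuole, had 1 positive member of 24 and a median of -0.18, with 7 fallen and 0 risen in the authors' deposited table and 10 lower and 0 higher at an unadjusted limma p. Limma called 12 as lower without WT replicate 1, and within the P-type libraries the median was -0.31. The gene atg24 went from 870, 910 and 900 to 750 and 760. For hexose transport and glucose-repressed genes 5 of 15 fell and 0 rose in the authors' deposited table (median -0.21), and 5 were lower and 0 higher at an unadjusted limma p. The transporter gene ght5 was at 5800, 5800 and 5100 in WT, 4200 and 4300 in rnh1∆rnh201∆ and 3300, 3200 and 3300 in pRnhA. The hexose median was -0.07 within the M-type and -0.34 within the P-type libraries.

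In peroxide and thiol defence limma called 1 of 26 as lower, and 4 fell and 0 rose in the authors' deposited table, with 8 lower and 1 higher at an unadjusted limma p. The called gene was srx1, for sulfiredoxin, which repairs overoxidized peroxiredoxin, with 560, 680 and 600 in WT, 340 and 330 in rnh1∆rnh201∆ and 500, 440 and 430 in pRnhA. The rnh1∆rnh201∆ libraries were the lowest of all 8. The median of the list was only 0.02, so these members did not stand for it. In ergosterol synthesis, with a median of -0.03 over 23 members, limma called erg32, a sterol desaturase gene, as lower, with 3300, 3100 and 2400 in WT and 1600 and 1400 in rnh1∆rnh201∆.

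Genes that handle DNA damage were near their WT level. The 46 genes of recombination and repair had a median of 0.02, and 4 rose and 0 fell in the authors' deposited table, a share near that of all rows, with the same counts at an unadjusted limma p. The 16 checkpoint genes had a median of -0.03, with 0 called in the authors' deposited table and 1 higher and 1 lower at an unadjusted limma p. The 48 replication genes had a median of 0.05, with 0 risen and 1 fallen in the authors' deposited table and 1 higher and 1 lower at an unadjusted limma p. That fallen gene was cdt1, given above. A p that misses the threshold does not show that these genes were unchanged.

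Other nuclear processes also stayed near the background. RNA interference and heterochromatin had a median of -0.03 over 24 members, with 1 risen and 0 fallen in the authors' deposited table and the same at an unadjusted limma p. Chromatin remodelling and histone modification had a median of 0.01 over 38 members, with 1 risen and 2 fallen in the authors' deposited table and 1 and 2 at an unadjusted limma p. The proteasome had a median of -0.02 over 36 members, with 2 risen and 0 fallen in the authors' deposited table and 2 higher and 3 lower at an unadjusted limma p.

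Noncoding transcripts as a class had shares of calls under those of all rows in the authors' deposited table, but not by every count. The 615 tested noncoding RNA rows had a median of 0.09, with 15 of 452 risen and 17 fallen in the authors' deposited table, both shares under those of all rows. At an unadjusted limma p 57 were higher and 25 lower. For 115 both rnh1∆rnh201∆ libraries lay above all WT libraries, a share over the 15.0% of all rows. For 37 both lay below, a share under the 13.9% of all rows. Without WT replicate 1 the median was 0.02, with 19 called as higher and 29 as lower. With all libraries limma called 2 as higher, a share over the 0.0774% of all rows, and 0 as lower. Besides SPNCRNA.1299, at 14, 11 and 10 in WT and 160 and 84 in rnh1∆rnh201∆, this was SPNCRNA.1389, at 110, 110 and 98 in WT, 210 and 200 in rnh1∆rnh201∆ and 150, 180 and 180 in pRnhA (log2 fold change 0.95, SE 0.13, limma adjusted p 0.045). Antisense transcripts had a median of 0.01 over 597 rows, with 21 of 485 risen and 22 fallen in the authors' deposited table and 63 higher and 23 lower at an unadjusted limma p. That median was -0.11 without WT replicate 1, with 29 called as higher and 38 as lower. With all libraries limma called kap114-antisense-1 as higher, from 4, 7 and 5 to 29 and 36. Others with large changes were ckk2-antisense-1, from 14, 16 and 7 to 80 and 43, and SPCC18.03-antisense-1, from 3, 8 and 7 to 37 and 27, which rose in the authors' deposited table. Whether the counting used strand is not given in the sources used here, so reads of an antisense row cannot be told apart from those of its sense gene.

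Of the remaining limma calls, SPBC336.05c, an S-adenosylmethionine-dependent methyltransferase gene next to rnh1 on the chromosome, was at 65, 59 and 69 in WT, 150 and 170 in rnh1∆rnh201∆ and 58, 51 and 61 in pRnhA. The rnh1∆rnh201∆ libraries alone were high. It lies within cdc6, on the opposite strand, in ASM294v3, so its counts are uncertain. SPAC4G9.20c, for the mitochondrial carrier Ymc1, went from 1100, 1300 and 1400 to 700 and 780, the zinc finger gene SPCC1739.01 from 4600, 4700 and 4600 to 3100 and 3500, and the aldo/keto reductase gene SPBC8E4.04 from 1200, 1300 and 1200 to 900 and 920. These 3 were as low or lower in pRnhA, at 640 to 750, 2800 to 3100 and 830 to 870. SPAC186.05c, a GDT1-like gene, was at 47, 56 and 70 in WT and 2 and 10 in rnh1∆rnh201∆. It was the 1 of the 19 limma calls that is not past 0.05 in the authors' deposited table, which gives 0.11.

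The pRnhA libraries gave a second reference, since they have more RNase H than WT rather than less. Both comparisons with WT use the same WT libraries, so values are set side by side and no agreement is computed. The nucleolar median was 0.39 in rnh1∆rnh201∆ and 0.43 in pRnhA, and that of chaperones 0.47 and 0.27. For core histones the medians were -0.44 and -0.16, for cell separation -0.47 and -0.38, for iron and heme -0.42 and -0.35, and for nitrogen -0.57 and -0.93. For chaperones and histones the value of rnh1∆rnh201∆ was farther from 0, and for nitrogen that of pRnhA was. Also farther from 0 in pRnhA were arginine metabolism (-0.36 in rnh1∆rnh201∆ and -0.54 in pRnhA), the tricarboxylic acid cycle (-0.22 and -0.31) and mitochondrial rows (-0.25 and -0.62). So were hexose transport (-0.21 and -0.33), stress (-0.18 and -0.26), polymerase II (0.18 and 0.24) and polymerase III (0.23 and 0.30). The same held for nuclear RNA decay (0.13 and 0.21), splicing factors (0.08 and 0.14) and small nuclear and nucleolar RNAs (0.29 and 0.57). For the small RNAs, however, the median difference of rnh1∆rnh201∆ from pRnhA was only -0.03. Translation factors went the other way (0.23 and 0.14), and polymerase I was close (0.31 and 0.29). Each group listed here had the same sign in both strains.

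Direct contrasts of rnh1∆rnh201∆ with pRnhA, which do not use the WT level, tested where the strains differ. Limma called 23 rows, or 0.356%, with 0.232% of rows higher and 0.124% lower, and 7.53% of rows were higher and 5.02% lower at an unadjusted p. Core histones had 6 of 11 lower and 1 higher at an unadjusted p, with a median difference of -0.20, and 0 past the adjusted threshold. The respiratory chain and ATP synthase had 16 of 37 lower and 1 higher at an unadjusted p, with a median difference of -0.16, and again 0 past the adjusted threshold. That list was at -0.09 against WT in rnh1∆rnh201∆ and at 0.09 in pRnhA. Chaperones had 6 of 30 higher and 0 lower, with a median of 0.18. Nucleolar genes had 3 of 66 higher and 2 lower, with a median of -0.07, both shares under the background. Arginine metabolism had 4 of 12 higher and 0 lower, with a median of 0.20. The authors' deposited table holds no such contrast.

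**Figure D4:**
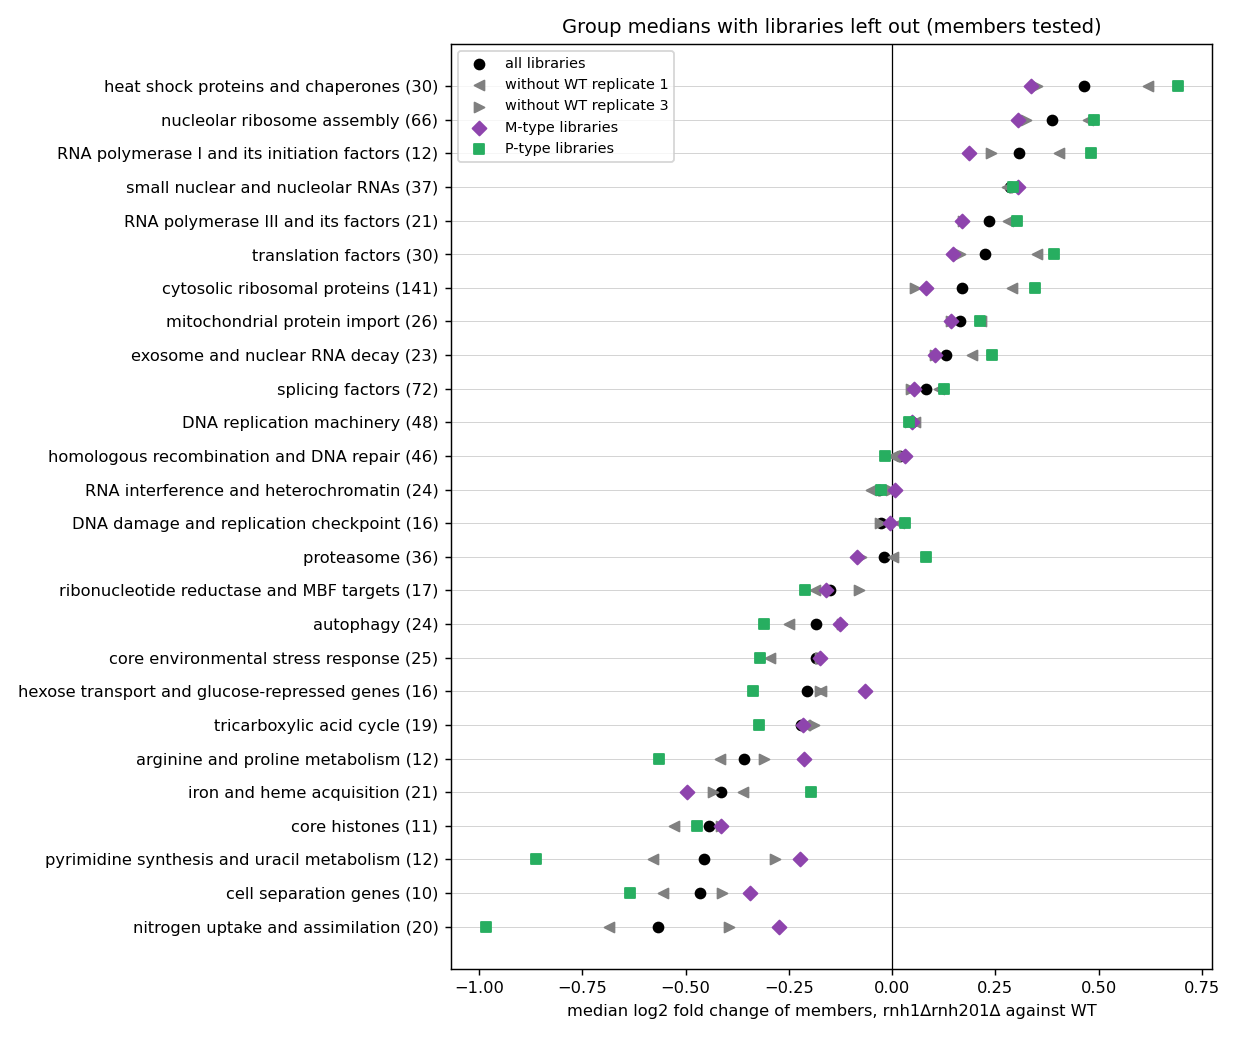
Median log2 fold change of each functional group, rnh1∆rnh201∆ against WT, with all libraries (black), without WT replicate 1 or 3 (grey triangles), and within the libraries with the M-type (purple) or P-type (green) mating transcript. Every group shown with a median beyond 0.1 in size keeps its side of 0 in all 5 settings, and the widest gap among the groups shown is in nitrogen uptake, from -0.27 to -0.98.

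Calls without WT replicate 1 in the other groups described are read against 10.5% of rows higher and 9.05% lower. As higher, limma then called 6 of 12 genes of RNA polymerase I, 7 of 21 of RNA polymerase III, 9 of 26 of mitochondrial import, 7 of 72 splicing factors and 4 of the 17 factors that limit hybrids. As lower, it called 7 of 11 core histones, 6 of 20 cell cycle control genes, 4 of 17 of the ribonucleotide reductase and MBF list, 10 of 20 of nitrogen uptake, 6 of 12 of arginine metabolism and 7 of 12 of pyrimidine metabolism. It also called 8 of 21 of iron and heme, 7 of 19 of the tricarboxylic acid cycle, 3 of 37 of the respiratory chain, 3 of 24 mitochondrial rows, 4 of 16 of hexose transport and 5 of 26 of peroxide defence as lower. In the opposite direction it called 1 cell cycle, 1 nitrogen, 1 arginine, 2 pyrimidine, 1 iron and 1 hexose gene as higher. In each of the lists of recombination and repair, replication, checkpoint, RNA interference, chromatin, proteasome, mitochondrial ribosomal proteins, small nuclear and nucleolar RNAs, ergosterol and iron-sulfur clusters, it called at most 3 members in either direction.

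The within-type values come from few libraries, 1 rnh1∆rnh201∆ library against 2 WT libraries for the M type and 1 against 1 for the P type, and give no test. Every list with a main median beyond 0.1 in size that is named above kept its sign in both types. The gap between types was small for histones, at -0.41 and -0.47, and for small nuclear and nucleolar RNAs, at 0.30 and 0.29. It was wide for nitrogen, arginine and pyrimidine genes, for which WT replicate 3, the sole P-type WT library, was the highest of the WT libraries. The part of mating type and of single WT libraries in these group values was not tested further.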

How the data were processed

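RNA-seq of 3 WT, 2 rnh1∆rnh201∆ and 3 pRnhA libraries was used (total RNA by hot phenol, a directional kit and single-end reads of 50 bases, per the labels' protocols). The submitters' processing notes name TopHat2 2.0.5, DESeq2 and the builds hg19 and ASM294v2, without their role. The authors deposited normalized counts, which are a score rather than raw counts because each is whole with at most 2 significant digits. They also deposited log2 fold changes (WT as reference, correlation 0.91 with the ratio to WT and 0.11 with that to pRnhA) and adjusted p-values with 2 decimals, of which 87 printed as 0.05 were not counted. The raw depth is unknown. Normalized counts summed to between 8635280 and 9455805 per WT or rnh1∆rnh201∆ library.

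Rows with a mean of at least 1 were tested with limma-trend (limma 3.58.1, R 4.3.3) on log2(value + 1), 8 libraries in 3 groups, 5 residual degrees of freedom, Benjamini-Hochberg adjustment over all 6456 rows and a threshold of 0.05. Fold changes are on that scale, which understates low genes. The fit was tested on simulated data. The 72 gene lists and the genes named were chosen with earlier results of these data known. Lists are described by counts and medians, with no set test. Genes named were rnh1 and rnh201, every limma call, up to 4 members per list by unadjusted p and the 10 highest and 10 lowest changes past 0.05 in the authors' deposited table with groups that do not overlap, all but the first 2 kinds with a mean of at least 20. Names and promoter windows come from RefSeq assembly ASM294v3 (6231 identifiers matched). Alternatives were the pseudocount, the filter, the scaling, a block, a mating-type term, library weights and leaving out each library. The comparison within mating types was added after seeing the data. Some items are not reported here.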

Additional observations from a re-analysis of the deposited data

Results flagged for a closer look

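No group held 4 or more libraries, so no single library was tested as an outlier. Among the genes named, 5 differed between rnh1∆rnh201∆ and pRnhA in limma's direct contrast, which tests whether their differences from WT differ. The deleted genes rnh1 and rnh201 were lower by log2 differences of -3.37 and -5.42. The peptide transporter gene ptr2 was higher by 1.24 (adjusted p 0.0054), with both rnh1∆rnh201∆ libraries at 1300 or more and all pRnhA libraries at 620 or less. The glutamate dehydrogenase gene gdh2 was higher by 0.81 (adjusted p 0.019), although it was lower than WT in every library of both strains. SPBC336.05c, the neighbour of rnh1, was higher by 1.48 (adjusted p 0.0054) in both rnh1∆rnh201∆ libraries, a call lost without replicate 2 (1.39), and the part of the deleted neighbouring locus in this was not tested.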

How the results depend on the processing

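The number of rows called depended on the setting far more than the direction of the groups did. Against WT limma called 19 rows, 12 with a pseudocount of 0.5, 55 with a pseudocount of 5, 4 with the 5 WT and rnh1∆rnh201∆ libraries alone, 213 with each library scaled to its total and 2298 with library quality weights, whose estimation did not converge. The authors' deposited table has 932. Leaving out 1 library gave from 3 to 1264 calls, the highest without WT replicate 1. Against pRnhA limma called 23 rows, 35 with no filter on low values, 263 with quality weights and from 5 to 93 with 1 library left out. Whether replicate numbers pair the deletion with WT cannot be told from these data. Deviations of equal-numbered libraries correlated at -0.17 and 0.39 (with pRnhA at -0.51 and 0.49). The deviations of the 2 deletion libraries from their mean mirror each other, so the values are not separate checks. Mating type is mixed in as well: replicate 1 was P-type in the deletion and M-type in WT and pRnhA, while replicate 2 was M-type in each. Equal-numbered WT and pRnhA libraries, which set most of the spread, deviated together, at 0.34, 0.35 and 0.60. In both of these groups replicates 1 and 2 were M-type and replicate 3 was P-type. Replicate number and mating type thus cannot be told apart in these values. With the replicate number as a block, 22 rows were called against WT, 9 of them shared with the fit without it, and 20 against pRnhA.

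Of 72 group medians 49 kept their sign in every setting run, 17 for each list but the nuclear transfer RNAs, which had 16 because no row reached a mean of at least 20. Those that did not include 2 with a median beyond 0.1 in size, branched-chain amino acid synthesis and the ribosomal RNA rows, neither of which is used above. Of 1690 values of single genes under alternatives 0 reversed, 1271 stayed on their side of the threshold, 269 passed it newly and 150 no longer passed. A change of sign counted as reversed only where the adjusted p was under 0.05 in the main fit or the alternative. Other changes of sign were counted as staying on their side of the threshold. Rounding to 2 digits and the unknown depth limit what can be said of low rows. The cause of these shifts was not tested.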

Other observations

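The largest difference by size between the strains did not pass the threshold. The subtelomeric helicase genes tlh1 and tlh2, of the RecQ type, were at 30 to 59 in the WT libraries. In rnh1∆rnh201∆ tlh1 was at 3100 and 4000, and tlh2 at 3400 and 4300. In pRnhA tlh1 was at 44, 35 and 4900, so replicate 3 was as high as the deletion and the other pRnhA libraries were as low as WT. The log2 fold change of tlh1 against WT was 6.49 (SE 1.80, limma adjusted p 0.11), and the authors' deposited table gives it no adjusted p. The rows are near-identical copies that share reads, so they count as 1 observation. The telomere maintenance list, which holds both, had a median of 0.05 over 14 members.

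The rnh1∆rnh201∆ libraries differed from each other in psk1. The kinase gene psk1, of the S6 kinase family in the TOR pathway, was at 1000, 900 and 970 in WT and at 1100 and 3200 in rnh1∆rnh201∆ replicates 1 and 2. The authors' deposited table has it past 0.05, while its limma adjusted p was 0.16, and the TOR pathway list had a median of -0.02 over 17 members. The copper transporter gene ctr4 was at 370, 230 and 390 in WT, 750 and 540 in rnh1∆rnh201∆ and 880, 840 and 530 in pRnhA, with no overlap between WT and either strain (limma adjusted p 0.12). The meiotic gene mug108 was at 63, 56 and 150 in WT, 320 and 350 in rnh1∆rnh201∆ and 57, 64 and 210 in pRnhA, and in WT and pRnhA its highest library was the P-type one.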
